A study of Mus musculus with 3 samples.

Results

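The mitosis genes described here are 37 genes that drive a cell from the end of G2 through chromosome segregation to cytokinesis, taken as a fixed list of symbols out of 20886 genes named on the arrays. Membership goes by symbol and the rule holds no measured value, but the list was proposed with earlier results of these data known, so the shares below describe it and are no independent evidence. All 37 had a probe well above background on 1 or more arrays, and 54 of the 39429 probes belonged to them. The genes lie on 14 chromosomes, with 6 on chromosome 2, 5 on chromosome 11 and 4 on chromosome 7.

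The cells were primary endothelial cells from the corpus cavernosum (erectile tissue) of C57BL/6 mice, abbreviated MCECs in the labels. They were grown in M199 with serum, heparin and vascular endothelial growth factor A. For 48 h the cells of 1 array were in normal glucose (5 mmol as labelled), those of another in high glucose (30 mmol), and those of the last in high glucose (30 mmol) with DKK2; for its dose, the sources used here give no value. DKK2 (Dickkopf 2) is a secreted protein that binds the Wnt co-receptors LRP5 and LRP6. Each of the 3 arrays held a pool of RNA from 3 samples, so each condition had 1 array. There was no replicate check, no test was run and no p-value is given, and array and condition cannot be told apart. What limits the model is that a pool hides the spread between its samples, and that the cells were taken from the mice as a primary culture.

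Entry into mitosis is driven by the kinase CDK1 with its A- and B-type cyclins, which is switched on by CDC25 phosphatases. Aurora and Polo-like kinases then direct centrosome separation, spindle assembly and chromosome attachment, while the spindle checkpoint holds back the anaphase-promoting complex until every kinetochore is attached. The transcripts of these genes accumulate in late cell cycle phases, largely under the MuvB complexes, B-MYB and FOXM1, and are low in resting cells such as mature endothelium. In a bulk culture, a larger share of cells in G2 and mitosis and more of these transcripts per cell cannot be told apart.

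Values are processed signal intensities from the scanner, given as a percentage of the 75th percentile of their own array and called scaled signal. Differences are on the log2 scale, where 1 is a doubling, and a gene is called higher or lower only where its difference was at least 2-fold with the probe well above background on both arrays. A scaled signal can be set against the same probe on another array but not against another gene. The scanner's own error model gave an SD of 0.20 to 0.28 on the members' log2 differences, which covers technical error only. The normal glucose array had a 75th percentile of 1201.1 intensity units, the high glucose array 2380.1 and the DKK2 array 2416.9, and 76.6% to 84.7% of probes were well above background. The normal glucose array was thus the dimmest. Of 20 endothelial markers, 18 to 20 were well above background on an array. So were all 14 fibroblast markers and 11 to 12 of 12 smooth muscle and pericyte markers, and the count does not single out endothelial cells. Their scaled signals summed to 744.1 (normal glucose), 921.7 (high glucose) and 984.4 (DKK2), and to 440.4, 538.2 and 533.3 without Kdr, the brightest of them. Erg, an endothelial transcription factor, was well above background on the high glucose array alone, while Pecam1 (scaled signal 11.2, 15.5 and 17.98) and Cdh5 (16.2, 23.9 and 12.9) were above it on all 3 arrays. Markers of other cell types are given with the last results.

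**Figure D1:**
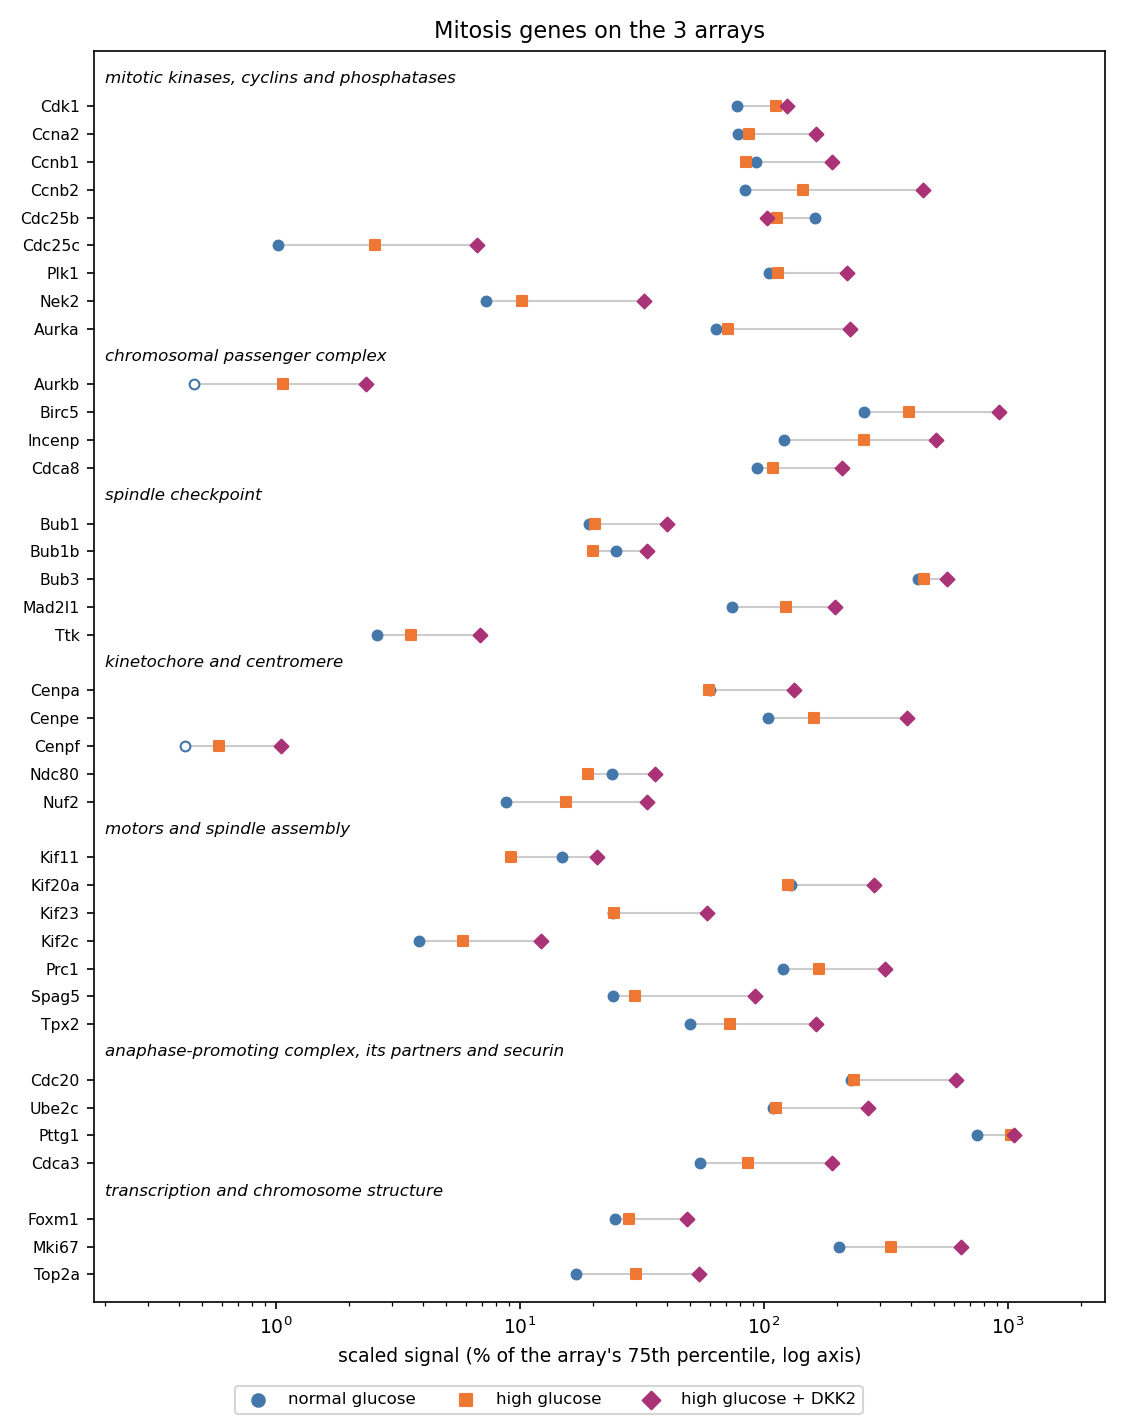
Scaled signal of the chosen probe of each of the 37 mitosis genes, grouped by role, as a percentage of the 75th percentile of its array on a log axis. Circles are normal glucose, squares high glucose and diamonds high glucose with DKK2, each from 1 array, and the open circles of Aurkb and Cenpf are not well above background; the diamond lies farthest right in 36 of the 37 genes, Cdc25b being the exception.

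The upstream sequence of these genes is shown first, because its motifs are shared by many members and did not enter the choice of the list. RefSeq windows on GRCm38.p6, from 250 bases before to 50 bases after the annotated start, were at hand for 30 members (32 windows). The 7 members without one were Ccna2, Aurkb, Foxm1, Incenp, Tpx2, Cdc25c and Kif20a. The first motif searched was TTTGAA, the core of the cell cycle genes homology region that MuvB complexes are known to bind. The second was CCAAT, the box known to bind NF-Y. Both strands were read, and any overlap of the motifs was allowed. Shown are the 5 members with the largest difference between DKK2 and high glucose among those whose window holds TTTGAA, each 5′ to 3′ on the gene's strand, with both motifs in capitals (TTCAAA and ATTGG where they lie on the opposite strand). They are Aurka (chr2:172370521-172370820, minus strand), Ccnb2 (chr9:70421505-70421804, minus strand), Spag5 (chr11:78301341-78301640, plus strand), Cdc20 (chr4:118437294-118437593, minus strand) and Kif23 (chr9:61946750-61947049, minus strand).
Aurka: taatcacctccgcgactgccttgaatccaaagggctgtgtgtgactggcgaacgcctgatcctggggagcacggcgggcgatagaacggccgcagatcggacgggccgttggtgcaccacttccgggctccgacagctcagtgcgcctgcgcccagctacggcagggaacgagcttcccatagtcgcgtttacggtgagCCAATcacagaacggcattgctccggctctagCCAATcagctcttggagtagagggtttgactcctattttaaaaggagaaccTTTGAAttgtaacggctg
Ccnb2: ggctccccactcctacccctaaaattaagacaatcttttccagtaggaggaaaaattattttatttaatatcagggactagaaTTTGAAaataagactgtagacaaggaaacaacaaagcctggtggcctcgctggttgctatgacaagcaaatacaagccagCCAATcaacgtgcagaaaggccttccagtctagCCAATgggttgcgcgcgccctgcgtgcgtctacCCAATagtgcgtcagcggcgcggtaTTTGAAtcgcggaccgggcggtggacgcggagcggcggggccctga
Spag5: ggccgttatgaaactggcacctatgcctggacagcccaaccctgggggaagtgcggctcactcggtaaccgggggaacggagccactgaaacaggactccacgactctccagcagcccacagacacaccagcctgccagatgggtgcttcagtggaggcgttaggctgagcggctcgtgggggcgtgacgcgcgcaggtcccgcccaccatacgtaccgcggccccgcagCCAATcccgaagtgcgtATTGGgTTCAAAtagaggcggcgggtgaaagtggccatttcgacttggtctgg
Cdc20: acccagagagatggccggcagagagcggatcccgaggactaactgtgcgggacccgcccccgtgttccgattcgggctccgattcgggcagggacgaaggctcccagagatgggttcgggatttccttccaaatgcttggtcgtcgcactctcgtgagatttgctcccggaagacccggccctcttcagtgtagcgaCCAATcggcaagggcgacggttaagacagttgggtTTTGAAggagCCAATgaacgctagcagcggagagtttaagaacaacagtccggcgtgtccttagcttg
Kif23: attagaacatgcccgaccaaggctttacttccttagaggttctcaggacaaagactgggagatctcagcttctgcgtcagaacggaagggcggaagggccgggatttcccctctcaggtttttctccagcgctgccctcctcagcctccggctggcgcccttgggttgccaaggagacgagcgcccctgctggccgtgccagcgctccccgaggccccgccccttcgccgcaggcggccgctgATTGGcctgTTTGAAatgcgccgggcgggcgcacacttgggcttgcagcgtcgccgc

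The TTTGAA match lay close to the annotated start in all 5. Counted from the start, it began at position 33 in Aurka, 4 in Spag5, 3 in Kif23 and -18 in Cdc20, and at 5 and again at -167 in Ccnb2. Of the 32 windows of members, 71.9% held TTTGAA, against 17.9% of all 32851 windows and 13.6% of 44 windows of G1/S and DNA replication genes. Between 60 bases before and 50 after the start, the shares were 62.5%, 5.5% and 9.1%. CCAAT was in 81.2% of members' windows, 37.4% of all windows and 59.1% of the replication windows. Both motifs stood in 65.6%, 7.0% and 11.4%. Members with and without the motif covered much the same range of differences on the arrays. The 21 members with TTTGAA had a median log2 difference of 0.95 between DKK2 and high glucose, with 10 called higher, and the 9 with a window but no TTTGAA had a median of 1.1, with 5 called higher. A match describes the letters of a window and does not show that a factor binds there.

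The comparison of DKK2 with high glucose sets the array of cells given DKK2 in high glucose against that of cells in high glucose alone. The scaled signal of 36 of the 37 members was above its high glucose value on the DKK2 array, as was that of 10270 of 17826 genes. Of the 37, 19 (51.4%) were at least 2-fold higher, where 5.09% of 17826 genes were, and none was at least 2-fold lower, where 4.87% of genes were. The median log2 difference was 1.07 over the members and 0.08 over all genes. The members ran from -0.14 to 1.66, and 32 of the 37 lay in the top 10% of all genes. The difference was above 2 error SDs in 33, and how many of all genes passed that mark was not counted. The rule of 2-fold passes through the middle of the members, since another 8 lay between 0.9 and 1 on the log2 scale (Bub1, Ccna2, Cdca8, Incenp, Mki67, Ndc80, Plk1 and Ttk).

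**Figure D2:**
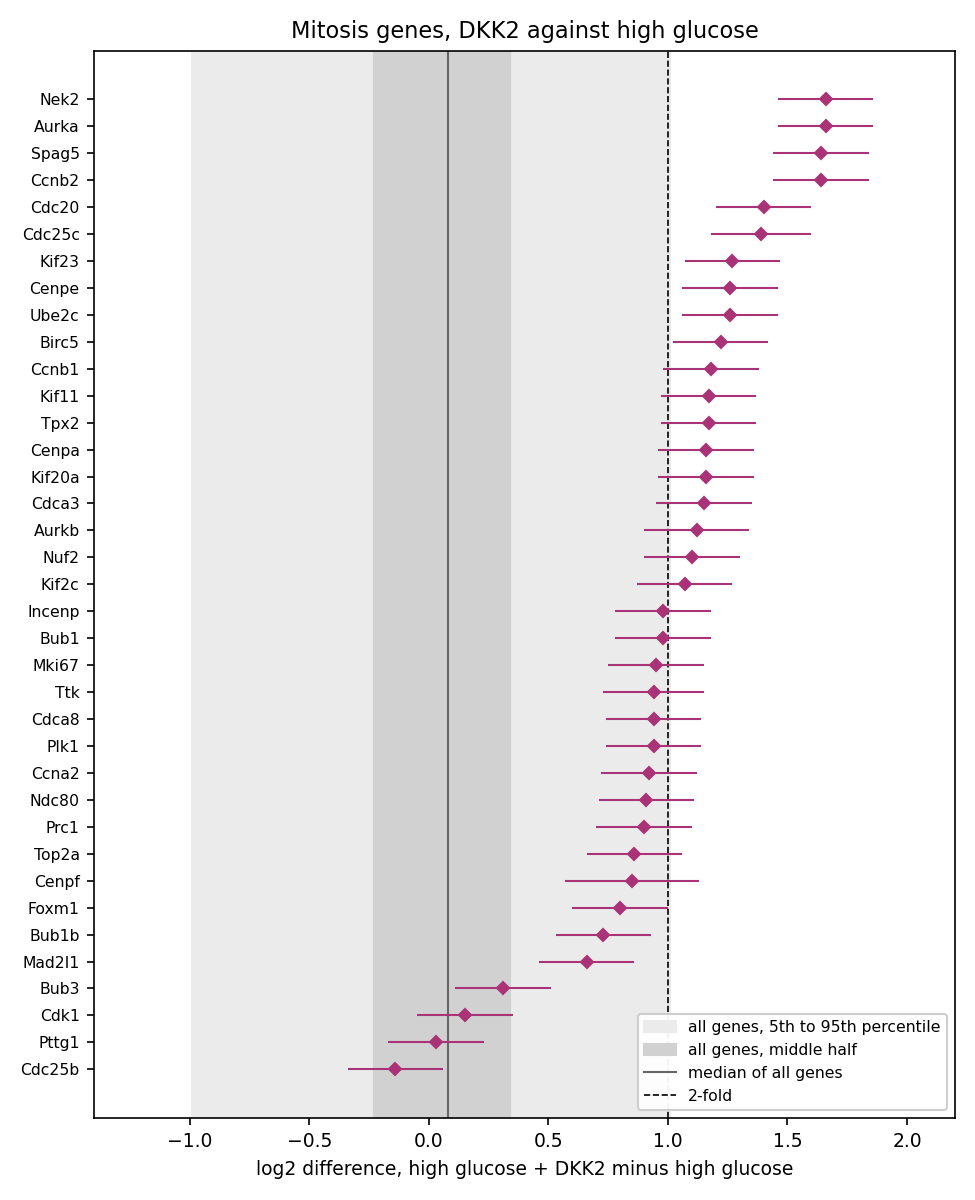
Log2 difference between the DKK2 and the high glucose array for each of the 37 mitosis genes, in order of the difference. Bars are 1 SD of the scanner's error model, and the dashed line marks 2-fold higher. Lighter shading spans most genes (-0.99 to 1.01), darker shading their quartiles (-0.23 to 0.34), and a line marks the median of all genes (0.08). Nek2, Aurka, Ccnb2 and Spag5 lie at 1.64 or above, and Cdc25b, Pttg1 and Cdk1 lie nearest 0.

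Among the 9 kinases, cyclins and phosphatases, 5 were higher with DKK2 than in high glucose, with a median log2 difference of 1.18. Aurka encodes the Aurora kinase of centrosomes and spindle poles. Its scaled signal read 63.7 for normal glucose, 71.2 for high glucose and 225.5 for DKK2, a log2 difference of 1.66 between the last 2. The DKK2 array alone stood apart, as the first 2 differed by 0.16. Nek2, a kinase that separates centrosomes before spindle formation, had 7.28, 10.2 and 32.3, and was likewise 1.66 above high glucose. Ccnb2, a B-type cyclin that partners Cdk1, had 83.5, 144.7 and 449.5, and the last value was 1.64 above the second. Unlike Aurka, it was already 0.79 above normal glucose on the high glucose array, though under 2-fold. Ccnb1, the main mitotic cyclin, had 93.2, 84.2 and 190.3, and its difference with DKK2 was 1.18. Its other probes gave 1.03 and 0.95, so the call depends on the probe. Cdc25c, a phosphatase that removes the inhibitory phosphates of Cdk1, had a dim probe with 1.02, 2.55 and 6.66 and a difference of 1.39. With normexp background correction that difference was 0.91, below the rule.

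The other members of that group were under 2-fold between DKK2 and high glucose. Ccna2, the A-type cyclin of S phase and early mitosis, had 78.6, 86.7 and 163.8, and Plk1, the Polo-like kinase, had 104.7, 114.5 and 219.1. Both were just under the rule, at 0.92 and 0.94, and Plk1 passed it with normexp, at 1.03. Cdk1 itself, the kinase that these cyclins activate, had 77.4, 112.2 and 124.6. It thus differed by 0.15 between DKK2 and high glucose, within its error, and its 2 other probes gave 0.34 and 0.27. Cdc25b, the phosphatase that acts first at mitotic entry, had 162.9, 113.5 and 103.2, the one member whose values ran down from normal glucose to DKK2, with no step as large as 2-fold.

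The chromosomal passenger complex is made of Aurora B and its partners, which correct faulty kinetochore attachments and act in cytokinesis. Of its 4 members, 2 were higher with DKK2 than in high glucose, and the median difference was 1.05. Birc5 (survivin), the subunit that reads the centromeric histone mark, had scaled signals of 258.8, 394.1 and 919.8 and a difference of 1.22. Its other probes gave 1.51 and 1.48. Incenp, the scaffold subunit, had 120.9, 258.7 and 509.4, with a difference of 0.98. Cdca8 (borealin) had 93.7, 108.6 and 209.0, with a difference of 0.94, and its other probe gave 1.03. Aurkb, the kinase of the complex, was dim. It was not well above background in normal glucose (scaled signal 0.461), and was 1.07 in high glucose and 2.34 with DKK2. The difference of 1.12 between these fell to 0.47 with normexp.

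None of the 5 spindle checkpoint members was called higher with DKK2 than in high glucose, and their median difference was 0.73. Bub1, a checkpoint kinase of the kinetochore, had 19.2, 20.3 and 40.0, a difference of 0.98 that missed the rule narrowly. Its probe was spotted 10 times on each array. The spots ran from 17.1 to 22.2 with a median of 18.8 in normal glucose, from 19.1 to 22.2 with a median of 20.1 in high glucose, and from 36.5 to 45.2 with a median of 39.5 with DKK2. The DKK2 spots did not overlap those of the other arrays, which overlapped each other. Spots of 1 array share its RNA and its hybridisation, so they show technical spread only. Ttk (MPS1), the kinase that starts checkpoint signalling, had a dim probe with 2.60, 3.57 and 6.85 and a difference of 0.94. Mad2l1 (MAD2), which inhibits Cdc20, had 74.1, 123.2 and 195.0 and a difference of 0.66. Bub1b (BUBR1) and Bub3, the remaining parts of the checkpoint complex, differed by 0.73 and 0.31.

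**Figure D3:**
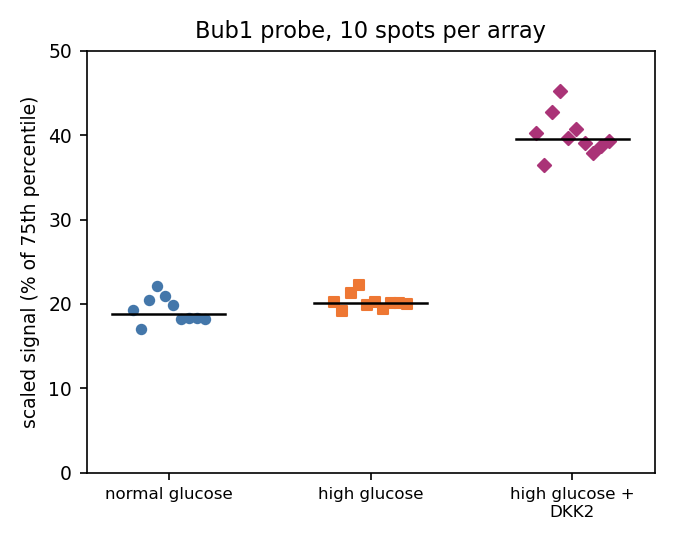
Scaled signal of each of the 10 spots of the Bub1 probe on each array, with 1 point per spot and a line at the median. The DKK2 spots (36.5 to 45.2) lie above all spots of normal glucose (17.1 to 22.2) and high glucose (19.1 to 22.2).

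Of the 5 kinetochore and centromere members, 3 were higher with DKK2 than in high glucose, with a median of 1.1. Cenpe, the kinesin that carries chromosomes to the spindle equator, had 104.1, 160.5 and 385.7 and a difference of 1.26. Cenpa, the histone H3 variant that marks centromeres, had 60.2, 59.6 and 133.1. Its normal and high glucose values were within error of each other, and DKK2 was 1.16 above high glucose. Nuf2 and Ndc80 are partners in the complex that grips microtubules. Nuf2 had 8.74, 15.4 and 33.2 and a difference of 1.1, while Ndc80 differed by 0.91. Cenpf, a large kinetochore protein, was the dimmest member, not well above background in normal glucose (0.425), with 0.582 in high glucose and 1.05 with DKK2, a difference of 0.85 between the last 2.

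Of the 7 motor and spindle assembly proteins, 6 were higher with DKK2 than in high glucose, with a median of 1.17. Spag5 (astrin), which holds spindle poles together, had 24.1, 29.6 and 92.4 and a difference of 1.64. Kif23, the kinesin of centralspindlin in cytokinesis, had 24.0, 24.3 and 58.6 and a difference of 1.27. For both genes the DKK2 array was the one that stood apart. Kif20a, a cytokinesis kinesin, had 129.6, 126.2 and 282.3 and a difference of 1.16. Kif11 (Eg5), which pushes spindle poles apart, had 14.9, 9.20 and 20.7. Its difference of 1.17 was measured from its lowest value, that of high glucose, so that DKK2 was only 0.48 above normal glucose. Tpx2, the activator of Aurora A on the spindle, had 50.04, 72.5 and 163.2 and a difference of 1.17, and its other, much dimmer probe gave 0.59, below the rule. Kif2c (MCAK), which takes microtubules apart at centromeres, had 3.85, 5.83 and 12.2 and a difference of 1.07, and 0.84 with normexp. Prc1, which bundles the midzone microtubules, had 119.6, 168.8 and 314.4 and a difference of 0.90.

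Among the partners of the anaphase-promoting complex and securin, 3 of 4 were higher, with a median of 1.2. Cdc20, the activator that starts anaphase, had 227.3, 233.6 and 615.1 and a difference of 1.40. Ube2c, the ubiquitin-conjugating enzyme of the complex, had 109.6, 112.1 and 267.9 and a difference of 1.26, and its other probe gave 1.29. In both, the normal and high glucose values were alike within error. Cdca3, which promotes degradation of the kinase Wee1, had 54.9, 85.8 and 190.4 and a difference of 1.15. Pttg1 (securin), the inhibitor of separase, was the exception, with 751.2, 1036 and 1058 and a difference of 0.03, and its other probe gave 0.47.

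No member of the last group, transcription and chromosome structure, passed the rule in this comparison, and the 3 had a median of 0.86. Mki67, which coats mitotic chromosomes, had 203.5, 333.0 and 641.4 and a difference of 0.95, and its other probe gave 0.97. Top2a, the topoisomerase that untangles sister DNA, had 17.1, 29.9 and 54.4 and a difference of 0.86. Foxm1, a transcription factor of G2 and mitosis genes, differed by 0.80.

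Where members had more than 1 probe above background, the probes moved the same way. In 12 genes with 2 or more measured probes, no pair of probes had opposite signs in any of the 3 comparisons. Counted by probe, 25 of 53 were at least 2-fold higher with DKK2 than in high glucose, 52 were above 0 and none was at least 2-fold lower.

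The comparison of high with normal glucose sets the high glucose array against the normal glucose array. Incenp (1.1) and Cdc25c (1.31), 2 of 35 measured members (5.7%), were at least 2-fold higher, where 2.70% of 16764 genes were, and none was lower, where 5.71% of genes were. With normexp Cdc25c turned to -1.07 and Ttk (0.45) to -1.01, both then 2-fold lower, while Incenp gave 1.09. The median was 0.30 over the members and 0.09 over all genes. Of the 35, 28 were above 0, as were 9472 of 16764 genes. With normexp 20 of the 35 were, and Cdc25c, Ttk, Kif2c, Nek2, Bub1, Kif23, Spag5 and Foxm1 changed sign. The differences of 17 were above 2 error SDs, among them Ccnb2 (0.79), Nuf2 (0.82), Top2a (0.81), Mad2l1 (0.73) and Mki67 (0.71). Those of 2 were below minus 2 error SDs, Kif11 (-0.69) and Cdc25b (-0.52). The share of all genes past either mark was not counted. The quartiles of all genes were -0.3 and 0.41. Cdca8 had 0.21 on the probe used and 1.06 on its other one. Aurkb was at least 1.7-fold higher in high glucose, measured against the lowest signal above background in normal glucose. That bound rests on the scanner's background correction.

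Against normal glucose, 27 of 35 measured members (77.1%) were at least 2-fold higher with DKK2, where 10.5% of 16668 genes were, and none was lower, where 10.4% were. The median was 1.39 over the members and 0.12 over all genes. This comparison shares its arrays with the other two and is not separate evidence. The largest values were those of Cdc25c (2.70, but -0.15 with normexp), Ccnb2 (2.43), Nek2 (2.15, and 1.07 with normexp) and Incenp (2.07). Against the lowest signal above background in normal glucose, Aurkb was at least 3.71-fold and Cenpf at least 1.67-fold higher. Both bounds rest on the scanner's background correction, and neither gene has a normexp value in this comparison. Of the 19 genes higher than in high glucose, 17 were also higher than in normal glucose. The other two were Kif11, and Aurkb, which has only its bound. A further 10 members passed the rule against normal glucose but not against high glucose. These were Bub1 (1.06), Ccna2 (1.06), Cdca8 (1.16), Incenp, Mad2l1 (1.40), Mki67 (1.66), Plk1 (1.07), Prc1 (1.39), Top2a (1.67) and Ttk (1.40). With normexp 6 of the 27 no longer passed: Cdc25c, Ccnb1 (0.96), Bub1 (0.59), Kif23 (1.00 after rounding), Kif2c (0.14) and Ttk (-0.42). The 8 members that passed in no comparison were Bub1b, Bub3, Cdc25b, Cdk1, Cenpf, Foxm1, Ndc80 and Pttg1.

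The order of the 3 arrays was normal glucose, high glucose, DKK2 from low to high in 30 members. In part of these the first step was within error, as in Kif23 (0.02), Ube2c (0.03) and Cdc20 (0.04). Aurkb and Cenpf were not well above background in normal glucose. With normexp that step changed sign in Cdc25c, Ttk, Kif2c, Nek2, Bub1, Kif23, Spag5 and Foxm1. How many of all genes had this order was not counted. In 6 other members (Ccnb1, Bub1b, Cenpa, Ndc80, Kif11 and Kif20a) high glucose was lowest and DKK2 highest. Of these 6, only Kif11 had high glucose lower than normal glucose by over 2 error SDs.

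**Figure D4:**
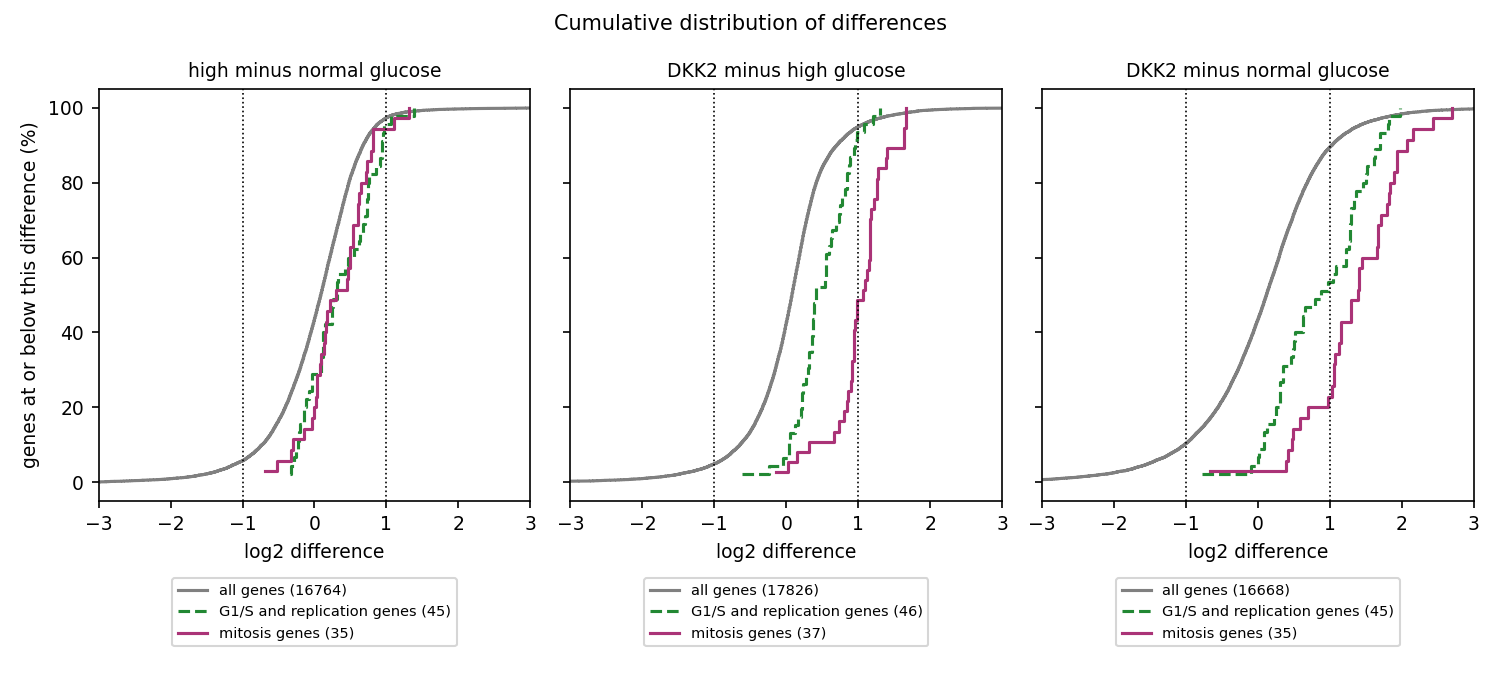
Cumulative share of genes at or below each log2 difference, for the mitosis genes, the G1/S and replication genes and all genes measured in each of the 3 comparisons, with dotted lines at 2-fold. The curve of the mitosis genes (median 1.07) lies to the right of that of the replication genes (0.42) and of all genes (0.08) between DKK2 and high glucose, and nearer to both between high and normal glucose (0.30, 0.31 and 0.09).

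Other genes of the same processes were counted in further lists. Of 33 other kinetochore and centromere genes, 8 were higher with DKK2 than in high glucose and none was lower, with a median of 0.73. The largest differences were those of Zwint (1.35), Cenpn (1.22) and Oip5 (1.18, but 0.93 with normexp), which act in the outer kinetochore, the inner kinetochore and Cenpa loading. Of 27 other spindle, motor and cytokinesis genes, 9 were higher and none lower, with a median of 0.90, led by the cytokinesis kinase Cit (2.19, and 1.06 with normexp), Kif18b (1.69) and Ckap2 (1.64). Of 21 condensin, cohesin and separase genes, 3 were higher (Ncapg 1.5, Esco2 1.45 and Cdca5 1.16), with a median of 0.60. Of 19 other mitotic kinases and regulators, 3 were higher (Depdc1a 1.39, Melk 1.19 and Mastl 1.19), with a median of 0.45. Core subunits and regulators of the anaphase-promoting complex differed from its partners Cdc20 and Ube2c above in the count, with 0 of 17 higher and a median of 0.06, and Anapc10 was lower (-1.03, but -0.39 with normexp). Over these 5 lists 23 of 117 genes (19.7%, where 5.09% of all genes were) were higher and 1 was lower, with a median of 0.54.

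**Figure D5:**
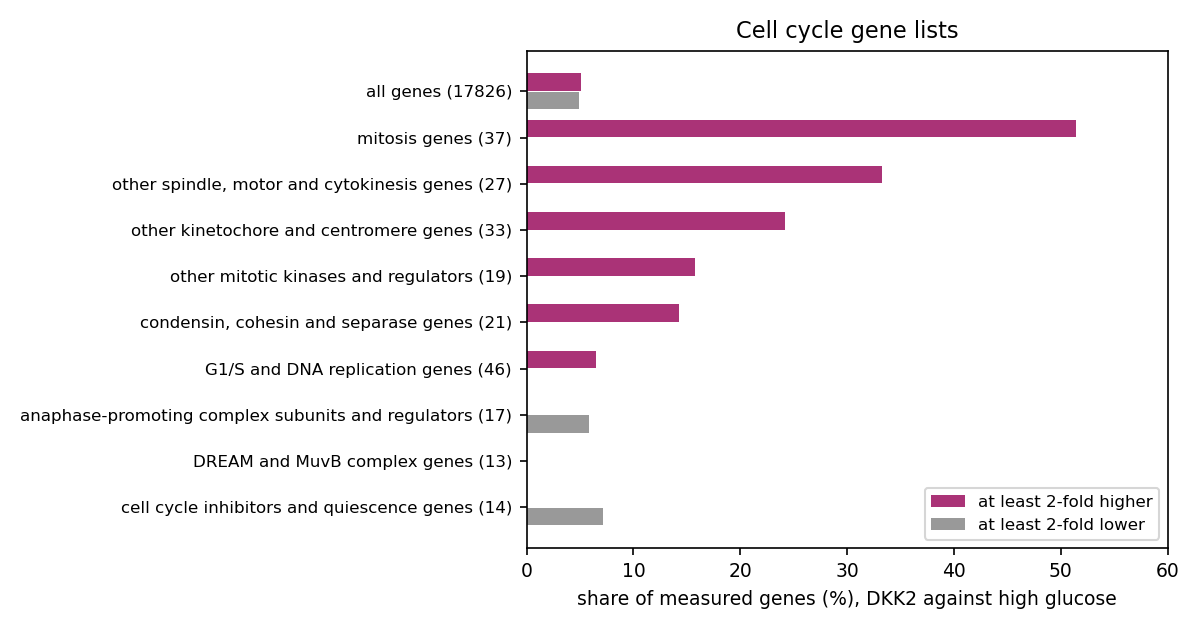
Share of measured genes at least 2-fold higher and at least 2-fold lower with DKK2 than in high glucose. Bars are given for all genes, the mitosis genes and the 8 related lists. The share higher was 51.4% for the mitosis genes, 5.1% for all genes and 0.0% for the anaphase-promoting complex subunits.

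Genes of the earlier cell cycle phases formed a further list. Of 46 G1/S and DNA replication genes, 3 (6.5%, where 5.09% of all genes were) were higher with DKK2 than in high glucose, namely the replication licensing factors Cdt1 (1.30) and Orc1 (1.21, but 0.84 with normexp) and the fork protein Mcm10 (1.08), and none was lower. The median was 0.42, and 43 of the 46 were above 0. Against normal glucose 21 of 45 (46.7%, where 10.5% of all genes were) were higher with DKK2, with a median of 0.87. Between high and normal glucose 2 of 45 (4.4%, where 2.70% of all genes were) were higher. These were Gins2 (1.39, but 0.97 with normexp) and Ccne2 (1.06, but -1.31 with normexp), and the median was 0.31. Whether the lists differ from each other was not tested.

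Of 13 DREAM and MuvB complex genes, which repress cell cycle genes in resting cells and, with Mybl2 (B-MYB), activate mitosis genes, none was 2-fold apart between DKK2 and high glucose. Their median was 0.20, and Mybl2 had scaled signals of 50.4, 50.8 and 75.3, a difference of 0.57. In high glucose 3 of the 13 were lower than in normal glucose, where 5.71% of all genes were. These were Rbl2 (p130, -1.87), E2f4 (-1.62) and Lin37 (-1.15). With DKK2 the same 3 were lower than in normal glucose (-2.16, -1.39 and -1.06), where 10.4% of all genes were. Lin37 then gave -0.89 with normexp. Of 14 cell cycle inhibitors and quiescence genes, 1 was lower with DKK2 than in high glucose, where 4.87% of all genes were. None was higher, the median was 0.23, and 9 of the 14 were above 0. The lower gene was Cdkn1c (p57), a CDK inhibitor, with scaled signals of 811.2, 572.0 and 97.7 and a difference of -2.55 (-2.52 with normexp). For this 1 gene the DKK2 array stood apart in the direction opposite to the mitosis genes. In high glucose 3 of the 14 were lower than in normal glucose, where 5.71% of all genes were, namely Trp53 (-1.79), Btg2 (-1.19) and Cdkn1a (-1.04). Cdkn1a gave -0.93 with normexp and 0.81 on its other probe. Among the other mitosis lists the genes apart between high and normal glucose included Ska1 (1.14, but 0.49 with normexp) and Zwilch (1.06, but 0.86 with normexp and 0.58 on its other probe) of the kinetochore, and the motor Kifc1 (-2.38, and -2.25 with normexp).

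Marker lists of several cell types differed between the same arrays. Of 16 macrophage and leukocyte genes measured, 11 were at least 2-fold higher with DKK2 than in high glucose, where 5.09% of all genes were. None was lower, the median was 1.64, and Cd163 was not well above background on any array. Their scaled signals summed to 2799 (normal glucose), 1988 (high glucose) and 2839 (DKK2), most of it from Itgam, and 348.5, 417.7 and 1227 without it. The 14 fibroblast markers summed to 63917, 59846 and 43443, and to 41588, 38930 and 29015 without Dcn, the brightest. Of the 14, 4 were lower with DKK2 than in high glucose, where 4.87% of all genes were. The 12 smooth muscle and pericyte markers summed to 8910, 5537 and 3451, and to 4781, 3433 and 2791 without Acta2, the brightest. Of 11 measured in the same comparison, 2 were lower. Of 19 endothelial markers measured, 6 were lower with DKK2 than in high glucose, where 4.87% of all genes were, and none was higher. Their median was -0.29. With normexp, Robo4 alone was still lower by the rule (-1.6, then -1.3). The 7 Schwann cell and glia markers summed to 193.1, 223.1 and 138.8. The 7 epithelial markers summed to 28.5, 31.1 and 206.7, of which Krt18 made up 174.2 on the DKK2 array. The part of these cell types in the values of the mitosis genes was not tested.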

How the data were processed

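Total RNA was hybridised to Agilent mouse one-colour arrays (Cy3). Per the file headers, Feature Extraction 11.5.1.1 made the deposited files, whose intensity values (processed signal) are linear and background-corrected, spot by spot, with flags. The deposited value table holds the mean of this intensity over a probe's spots, unlogged and unscaled (99.7% of probes matched to a fraction of 0.001); its column medians were 101.8, 196.2 and 204.5 (normal glucose, high glucose, DKK2).

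Of 44397 spots, 1377 control spots and 110, 115 and 136 outlier spots were left out; 0 were saturated. Values are log2 intensity less the array's own 75th percentile, as means over spots. A probe counted as above background if 50% or more of its spots were flagged so. Probes were named by accession through a RefSeq table (GRCm38.p6, names only): 27508 probes had 1 symbol. A gene took its brightest probe over the 3 arrays among those above background on at least 1. The 399 probes spotted 10 times had a median spot SD of 0.073, 0.074 and 0.081.

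With 1 array per condition no test was made, and the number of arrays limits the precision. The text names all members, giving all values for those at least 2-fold apart somewhere, and per other list and comparison up to 3 genes. Mybl2, Kdr, Pecam1, Cdh5, Erg, Robo4, Itgam, Cd163, Dcn, Acta2 and Krt18 were named after their values were seen. Other lists, like the members, were chosen with earlier results of these data known. Alternatives were normexp (offset 50, on median signal and local background, as the mean signal was not used here), median, quantile and cyclic loess scaling, filters, probe summaries, the deposited table and other size rules. The counting was tested on simulated data. Software: Python 3.11.15 (pandas 2.3.3, numpy 2.4.6) was used throughout, and limma 3.58.1 under R 4.3.3 for normexp and cyclic loess.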

Additional observations from a re-analysis of the deposited data

How the results depend on the processing

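Between DKK2 and high glucose, 15 to 19 members were at least 2-fold higher and none was lower under every scaling, filter, probe choice and background correction run, with medians of 0.98 to 1.07. Under these settings 2.84% to 6.28% of all genes were higher and 2.69% to 6.5% lower. Normexp kept 16 of the 19 genes (not Cdc25c, Aurkb and Kif2c) and added Plk1. A 1.5-fold rule gave 33 higher (13.1% of all genes) and a 3-fold rule 4 (1.61%). Against normal glucose the count was 21 to 29, where 5.62% to 12.9% of all genes were higher. A 3-fold rule gave 14 (3.48% of all genes), and a 1.5-fold rule gave 1 lower (19.2%). Between high and normal glucose, normexp gave 1 higher, 2 lower and a median of 0.07. A filter at 100 intensity units on each array (31 members measured) gave 1 higher, where 1.81% of all genes were. A 1.5-fold rule gave 11 higher and 1 lower, where 14.02% and 13.53% of all genes were. A 3-fold rule gave 0 either way, where 0.64% and 1.93% of all genes were. With normexp the median against normal glucose was 1.07, and Cdc25c (-1.07 in high glucose, -0.15 with DKK2) and Ttk (-0.42 with DKK2) were called changes that reversed against normal glucose. In high against normal glucose, members above 0 went from 28 to 20, with Ttk at -1.01, Kif2c at -0.71 and Nek2 at -0.38. Normexp moved the median of all genes to -0.25 in both comparisons with the normal glucose array, where 23.47% and 24.03% of genes were then lower and 1.03% and 5.62% higher. Its offset of 50 units was the same on all 3 arrays, whose 75th percentiles without normexp were 1201.1 (normal glucose), 2380.1 (high glucose) and 2416.9 (DKK2). The cause was not tested. Set against the median of all genes, the members' median was 0.32 between high and normal glucose (0.21 without normexp), 0.90 between DKK2 and high glucose (0.99) and 1.32 between DKK2 and normal glucose (1.28). Of the members' single differences, 31 moved by more than 1 error SD with normexp (3 of them reversed) and 5 with the mean over probes, and none did so under the other scalings and filters. Cyclic loess and the probe chosen over the 2 arrays compared were added after seeing the data. The members that the filter at 100 units left out were Cdc25c, Nek2, Aurkb, Ttk, Cenpf and Kif2c. No paired analysis was possible because each condition had 1 array.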
